A study of Mus musculus with 9 samples.

Results

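Macrophages and lymphocytes of the mouse renal cortex were examined through 33 marker genes, which were chosen by name and located by their official symbols among the 21950 genes with mRNA values. The level of a gene is given in FPKM, which scales the fragments sequenced from a transcript to its length and to the size of the library, summed over the transcripts of the gene, so that it is a level per transcript length. By cell type, the list held 3 genes of leukocytes in general (Ptprc, Cd53 and Laptm5), 13 genes of mononuclear phagocytes, 4 genes of Fc receptors and their signalling adaptors, 9 T cell genes, 3 B cell genes and 1 gene of natural killer and cytotoxic cells (Nkg7). Values were found for 31 of the 33 genes, and 28 of them had a mean of at least 0.1 FPKM over the 9 libraries and were tested. Cd163, Cd3d and Ms4a1 lay below this level, and Clec7a and Trbc2 were not analysed here.

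The libraries came from total RNA of the renal cortex of male C57BL/KsJ mice aged 15 weeks, with 1 library per mouse and 3 mice per group. Control mice were db/m littermates, which carry 1 copy of the db mutation of the leptin receptor gene Lepr and are non-diabetic, and dbdb mice carried the mutation on both chromosomes and were diabetic. The dbdb mice received a vehicle by gavage, and for the control mice a vehicle is not stated in the sources used here. The dbR mice were db/db mice given rosiglitazone, a drug that activates the nuclear receptor PPARγ, by daily gavage of 20 mg/kg over 8 weeks, starting at an age of 7 weeks. The db mutation is present in every cell of an animal, leukocytes included. The level of Lepr was 1.05 to 1.23 FPKM in control, 0.304 to 0.652 FPKM in dbdb and 0.335 to 0.512 FPKM in dbR libraries.

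The healthy kidney holds a network of resident macrophages and dendritic cells between the tubules, with fewer T cells and B cells. Resident macrophages depend on signalling through the receptor Csf1r, whose ligands are encoded by Csf1 and Il34, and they take up particles and immune complexes through scavenger and Fc receptors. Fc receptors of this kind signal through small adaptors such as Fcer1g, and other myeloid receptors through Tyrobp. T cells are marked by the CD3 chains of the T cell receptor with the coreceptors CD4 and CD8, and B cells by the chains Cd79a and Cd79b of the B cell receptor. Several of these genes are used by more than 1 cell type: Cd14, Ctss and Lyz2 are not limited to macrophages, and Fcgr3 is also read in natural killer cells.

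PU.1, the product of Spi1, is a transcription factor of myeloid cells and B cells that binds DNA at sequences with a GGAA core. Promoter windows in RefSeq (GRCm38.p6), from 250 bases before to 50 bases after a gene start, were present for 23 of the 33 genes. The letters GAGGAAGT, read on both strands, were found in the windows of 2 of the 23 genes (8.7%), Cd53 and Ctss, and in those of 3.69% of 27025 genes overall. The shorter GAGGAA, searched after the data had been seen and contained in the longer motif, was found for 16 of the 23 (69.6%) and for 31.3% of all genes. These 16 were not limited to genes of myeloid cells and B cells, and included the T cell genes Cd3d, Cd3e, Cd8a and Lck. Promoters are shown here for 2 genes that were lower in dbdb mice (Aif1 and Fcgr1, from position 250 before the gene start up to it) and for the 2 genes with the longer motif (up to 20 bases past the gene start). Each is written 5′ to 3′ on the strand of its gene, with the motif or its reverse complement (TTCCTC or ACTTCCTC) in capitals, where Cd53 and Ctss have only the longer motif in capitals. A match is a description of the letters and was not tested for binding.

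Windows and positions follow the gene starts of RefSeq. The gene coordinates given with the values, from GENCODE, begin 16 bases upstream of the RefSeq start for Aif1. In Fcgr1 the match starts 55 bases before the gene start and in Aif1 7, whereas in Ctss it starts 2 bases before and in Cd53 6 bases after the first base of the gene.
Aif1 (chr17:35176053-35176302, minus strand): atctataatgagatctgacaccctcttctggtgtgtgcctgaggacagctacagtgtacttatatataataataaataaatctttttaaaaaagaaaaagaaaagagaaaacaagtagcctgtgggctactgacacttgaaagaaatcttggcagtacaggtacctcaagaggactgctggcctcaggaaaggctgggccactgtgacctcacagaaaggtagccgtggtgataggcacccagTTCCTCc
Fcgr1 (chr3:96293970-96294219, minus strand): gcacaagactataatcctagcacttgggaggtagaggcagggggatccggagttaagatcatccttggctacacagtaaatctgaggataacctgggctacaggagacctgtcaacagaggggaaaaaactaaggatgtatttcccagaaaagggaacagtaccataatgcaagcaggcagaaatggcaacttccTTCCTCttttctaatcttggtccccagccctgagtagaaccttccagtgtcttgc
Cd53 (chr3:106790130-106790399, minus strand): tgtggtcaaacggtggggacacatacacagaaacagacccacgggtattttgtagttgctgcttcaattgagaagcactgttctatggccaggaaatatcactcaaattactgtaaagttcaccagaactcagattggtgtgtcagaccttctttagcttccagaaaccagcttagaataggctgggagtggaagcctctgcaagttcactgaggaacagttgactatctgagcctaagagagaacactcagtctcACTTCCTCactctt
Ctss (chr3:95526536-95526805, plus strand): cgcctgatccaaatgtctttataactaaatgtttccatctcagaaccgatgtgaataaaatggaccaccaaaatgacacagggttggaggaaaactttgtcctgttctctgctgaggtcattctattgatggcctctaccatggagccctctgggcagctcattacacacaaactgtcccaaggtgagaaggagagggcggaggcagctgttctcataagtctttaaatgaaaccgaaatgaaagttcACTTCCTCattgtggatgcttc

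The proximal tubule, the main part of the renal cortex, was read in every library. Slc34a1, the phosphate transporter of the proximal tubule, had 1146 to 1641 FPKM. Steps between the lowest FPKM values gave an estimated 26500000 to 32950000 fragments per library. The fragment length of 250 bases used here was the one that best brought the low values to whole numbers of fragments. Within the groups, 4 libraries were most often the highest or the lowest in the marker genes. Dbdb replicate 3 was the highest library of its group for 19 of the 28 tested marker genes, compared with 33.8% of all tested genes, and for 12 of the 15 phagocyte and Fc receptor genes. It was also the lowest dbdb library for 6 of 7 proximal tubule genes, with an Lrp2 of 369 FPKM against 461 and 540 in the other dbdb libraries, and the highest for 4 of 6 distal tubule genes. Control replicate 1 was the highest control library for 19 of the 28 marker genes, compared with 35.6% of all genes, and for 6 of the 7 T cell genes. Control replicate 3 was the lowest control library for 20 of the 28, compared with 35.2% of all genes, and for 7 of 7 T cell genes, and dbR replicate 1 was the lowest dbR library for 17 of the 28, compared with 39.3% of all genes. In control replicate 1, the 6 red blood cell genes summed to 104 FPKM, against 7.81 and 23.6 in the other control libraries, 6.73 to 17.5 FPKM in dbdb and 10.3 to 18.2 FPKM in dbR libraries. The part of these differences in the results was not tested, and counts of calls are given with and without these libraries.

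The comparison of dbdb with control mice asked which leukocyte markers differ in the diabetic kidney. Of the 28 tested marker genes, 14 were downregulated in dbdb mice and 0 were upregulated (limma on log2(FPKM + 0.1), Benjamini-Hochberg adjusted p under 0.05 over 14537 genes), while 13.4% of all tested genes were downregulated and 26.4% were called in either direction. All 28 log2 fold changes were below 0 (27 with 75th percentile scaling or without mitochondrial genes, where Cd14 lay above 0), as were those of 50.4% of all genes, and their median was -1.01. The 3 dbdb libraries lay below the 3 control libraries without overlap for 18 of the 28, compared with 21.2% of all genes. An unadjusted p under 0.05 was found for 20 of the 28, compared with 38.8% of all genes. In RNA from whole cortex, fewer cells of a type and less RNA per cell cannot be told apart. Because 0.1 was added before the logarithm, the fold changes of genes with low FPKM are understated.

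**Figure D1:**
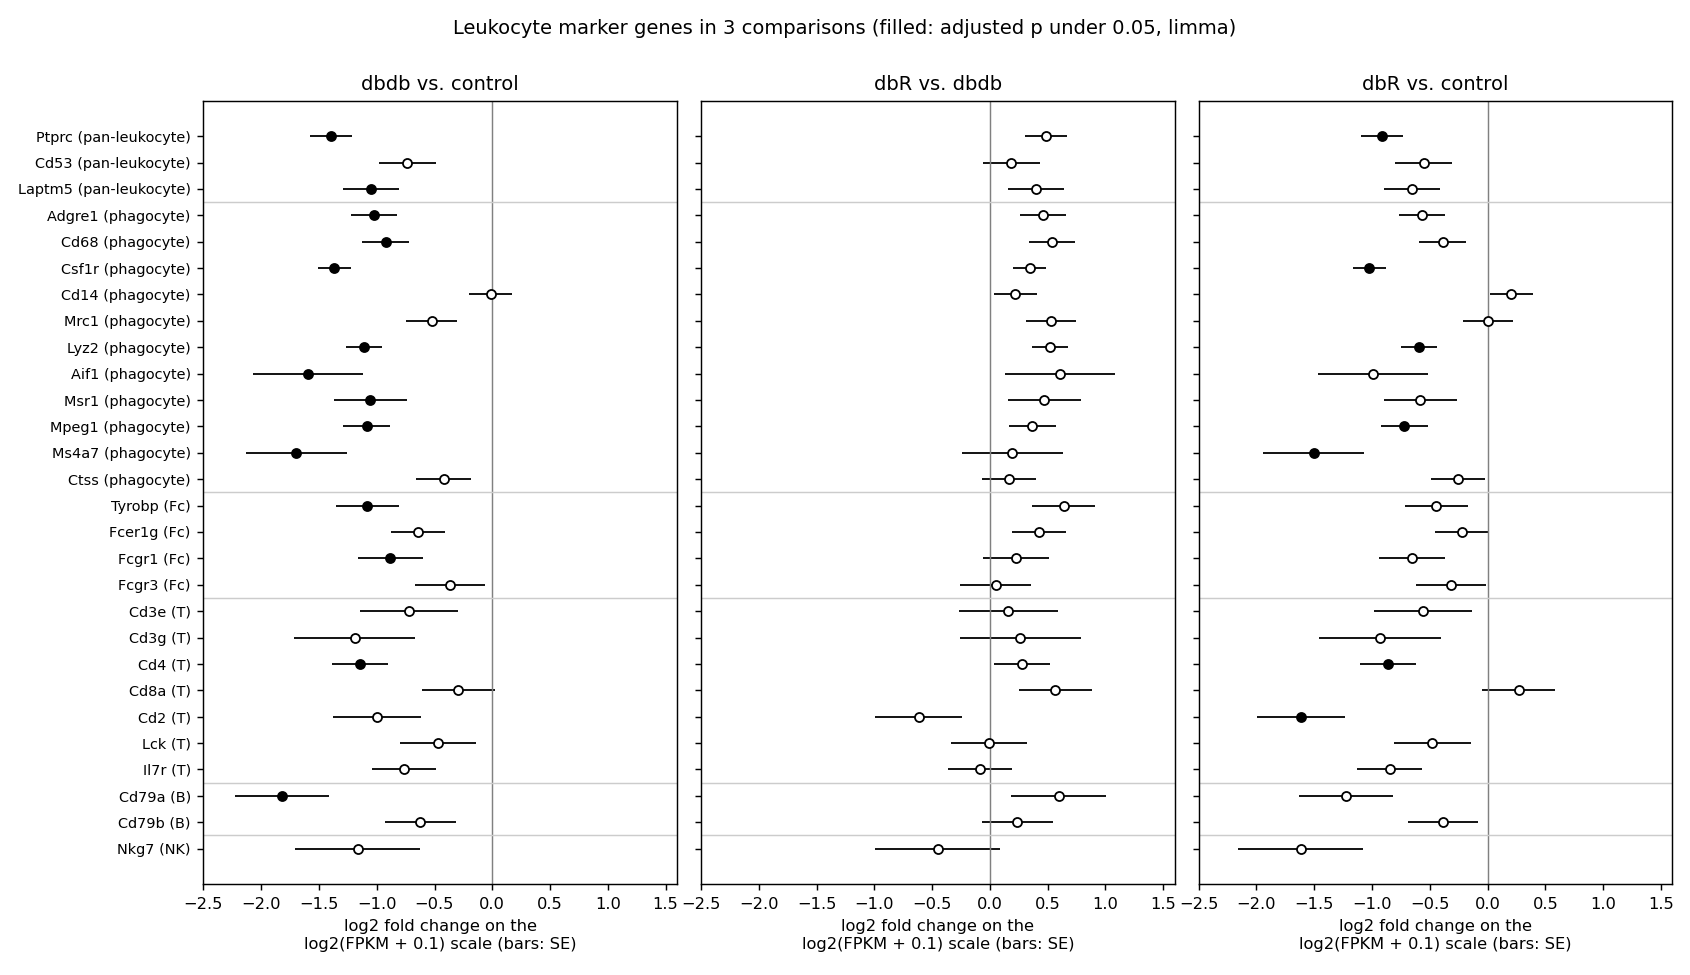
Log2 fold change on the log2(FPKM + 0.1) scale (x axis, bars are standard errors from limma) for the 28 tested marker genes (y axis, grouped by cell type) in the 3 comparisons, with filled points at an adjusted p under 0.05. In dbdb vs. control all 28 points lie left of 0 (Cd14 lies above 0 with 75th percentile scaling or without mitochondrial genes) and 14 are filled, in dbR vs. dbdb 24 lie right of 0 and 0 are filled, and in dbR vs. control 7 are filled.

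Summed by cell type, the markers of each type were lower in dbdb mice, with ratios of the dbdb to the control mean between 0.321 and 0.594, and between 0.179 (Nkg7, 0.436 with all libraries) and 0.487 without dbdb replicate 3. The 12 phagocyte genes with values summed to 55.4 ± 4.67 FPKM in control mice, to 30.1 ± 8.03 FPKM in dbdb mice and to 37.4 ± 3.55 FPKM in dbR mice (mean ± SD of 3 libraries). The 8 T cell genes summed to 2.55 ± 1.11 FPKM in control mice and 1.06 ± 0.203 in dbdb mice, and the 3 B cell genes to 0.910 ± 0.0984 and 0.292 ± 0.0702 FPKM (SD, n = 3 each). Control replicate 1 held 3.72 FPKM of the T cell genes, and without it their control mean was 1.96 FPKM. The dbdb libraries lay below the control libraries without overlap in each of these sums, and only for Nkg7 did the groups overlap. The T and B cell markers were read at a small part of the level of the phagocyte markers, and their sums rest on few fragments.

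**Figure D2:**
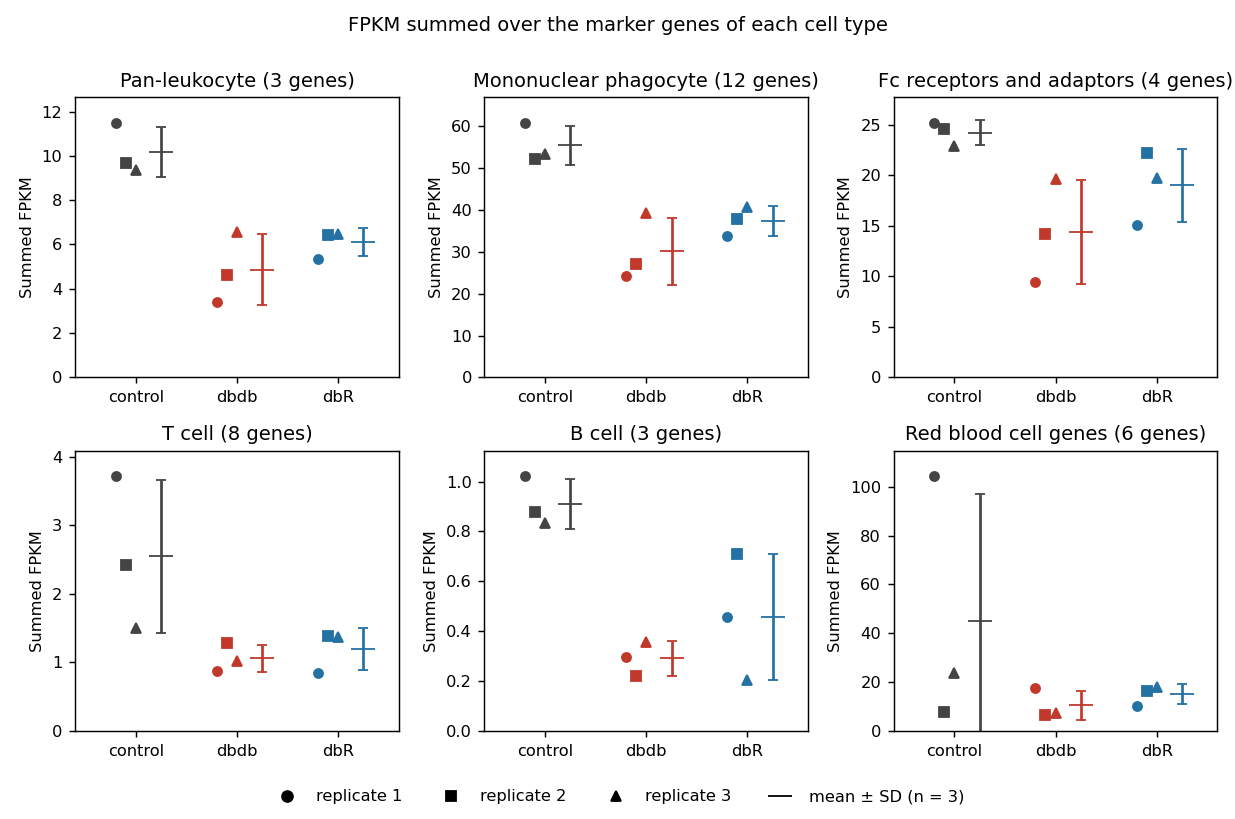
FPKM summed over the marker genes of each cell type (y axis) in each library of the control, dbdb and dbR groups (x axis), with the red blood cell genes for comparison; bars are mean ± SD (n = 3), drawn down to 0 where the SD exceeds the mean. Dbdb replicate 3 (triangle) is the highest dbdb library for the phagocyte genes at 39.2 FPKM, and control replicate 1 (circle) holds 104 FPKM of red blood cell genes.

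Ptprc encodes CD45, the tyrosine phosphatase on the surface of all nucleated blood cells, and lies at chr1:138062861-138175708 (minus strand). Ptprc had 4.49, 3.87 and 3.68 FPKM in control, 1.25, 1.26 and 1.97 in dbdb and 1.87, 2.48 and 1.93 in dbR libraries. Every control library was above every db/db library, treated or not. Dbdb and control mice differed by a log2 fold change of -1.39 (standard error, SE, 0.18, adjusted p = 0.000527 from limma). Laptm5, a lysosomal membrane protein of blood cells (chr4:130913125-130936141), had 3.75, 2.68 and 3.00 FPKM in control, 0.891, 1.71 and 1.97 in dbdb and 1.92, 1.86 and 2.05 in dbR mice. It was downregulated in dbdb mice by a log2 fold change of -1.05 (adjusted p = 0.0109 from limma), again without overlap. Cd53, a tetraspanin of leukocytes (chr3:106759921-106790149), had 3.26, 3.12 and 2.68 FPKM in control, 1.25, 1.65 and 2.65 in dbdb and 1.56, 2.11 and 2.50 in dbR mice. Dbdb replicate 3 came close to the lowest control library, and the log2 fold change of -0.73 did not pass the threshold (adjusted p = 0.0516 from limma).

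Among the mononuclear phagocyte genes, 8 of 11 tested were downregulated in dbdb mice, compared with 13.4% of all genes, with a median log2 fold change of -1.05. Csf1r, the receptor for the macrophage growth factors, lies at chr18:61100598-61132149. Csf1r had 11.5, 9.5 and 13.5 FPKM in control, 3.62, 4.77 and 4.79 in dbdb and 5.67, 5.08 and 5.97 in dbR libraries. The dbdb libraries were the lowest, the dbR libraries lay above them, and both groups were far below the control libraries, with no overlap between any pair of groups. The dbdb level differed from control by a log2 fold change of -1.37 (SE 0.14, adjusted p = 0.000176 from limma). Lyz2, lysozyme of macrophages and neutrophils (chr10:117277331-117282321), had 16.7, 11.9 and 11.3 FPKM in control, 5.96, 5.20 and 6.98 in dbdb and 7.64, 8.91 and 9.49 in dbR mice. This was the same order of groups without overlap, with a log2 fold change of -1.11 in dbdb vs. control (adjusted p = 0.000856 from limma). Lyz2 has a close paralog, Lyz1, so the division of fragments between them is uncertain. Lyz1, whose value rests on the same division, had at most 0.825 FPKM in any library, and the division was not tested.

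Mpeg1, which encodes the pore-forming protein perforin-2 of macrophages (chr19:12460779-12465283), had 6.40, 6.04 and 5.64 FPKM in control, 1.98, 2.73 and 3.97 in dbdb and 3.45, 3.35 and 4.09 in dbR mice. The dbdb and dbR libraries overlapped, and both groups lay below the control group. Mpeg1 was downregulated in dbdb mice by a log2 fold change of -1.09 (adjusted p = 0.00385 from limma). Adgre1, the adhesion receptor that gives the most used surface marker of mouse macrophages (chr17:57358691-57483527), had 2.01, 1.87 and 1.34 FPKM in control, 0.649, 0.752 and 1.0 in dbdb and 0.962, 1.15 and 1.28 in dbR mice. The lowest control library was still above every dbdb and dbR library, and dbdb mice were lower than control mice by a log2 fold change of -1.03 (adjusted p = 0.00470 from limma). Cd68, a glycoprotein of macrophage lysosomes (chr11:69664213-69666153), had 2.32, 1.91 and 1.6 FPKM in control, 0.861, 1.28 and 0.819 in dbdb and 1.77, 1.30 and 1.31 in dbR mice. Here dbdb replicate 2 was the highest dbdb library, the dbR libraries lay between the groups and reached into the control range, and dbdb mice were lower than control mice by a log2 fold change of -0.92 (adjusted p = 0.00822 from limma).

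Aif1, the calcium-binding protein of macrophages and microglia known as Iba1 (chr17:35170991-35176068), varied widely within the dbdb group. Aif1 had 3.21, 2.11 and 2.53 FPKM in control, 0.285, 0.784 and 1.94 in dbdb and 1.27, 0.995 and 1.53 in dbR mice. Every control library was above the others, but dbdb replicate 3 stood at several times the level of dbdb replicate 1. With all libraries its log2 fold change was -1.60 (SE 0.48, adjusted p = 0.0332 from limma), and -2.20 (adjusted p = 0.00204) without dbdb replicate 3. Msr1, a scavenger receptor (chr8:39581685-39642673), had 0.597, 0.548 and 0.385 FPKM in control, 0.212, 0.103 and 0.287 in dbdb and 0.190, 0.473 and 0.293 in dbR mice, with a log2 fold change of -1.05 in dbdb vs. control (adjusted p = 0.0347 from limma). Ms4a7, a membrane protein of macrophages (chr19:11321039-11336146), had 0.885, 0.964 and 0.556 FPKM in control, 0.141, 0.0989 and 0.322 in dbdb and 0.0557, 0.333 and 0.348 in dbR mice. Its decrease in dbdb mice (log2 fold change -1.70, SE 0.44, adjusted p = 0.0180 from limma) was the largest among the phagocyte genes with all 9 libraries, while without dbdb replicate 3 that of Aif1 was larger. When each library was left out in turn, Aif1, Msr1 and Ms4a7 each missed the threshold without control replicate 1, control replicate 2, dbdb replicate 1 or dbdb replicate 2, with adjusted p up to 0.0928, 0.115 and 0.0645, and Aif1 also without control replicate 3.

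The phagocyte genes that did not pass were Ctss, Mrc1 and Cd14. Ctss, the lysosomal protease cathepsin S and the marker with the highest mean level, had 13.7, 14.2 and 13.4 FPKM in control, 7.30, 9.25 and 15.9 in dbdb and 9.38, 12.8 and 12.7 in dbR mice. Dbdb replicate 3 was the highest of all 9 libraries while the other dbdb libraries were the lowest, and the log2 fold change was -0.42 (adjusted p = 0.215 from limma). Mrc1, the mannose receptor, had 1.31 ± 0.292 FPKM in control mice, 0.889 ± 0.264 FPKM in dbdb mice and 1.30 ± 0.158 FPKM in dbR mice (mean ± SD of 3 libraries; log2 fold change in dbdb vs. control -0.53, adjusted p = 0.103 from limma). Cd14, the coreceptor for bacterial lipopolysaccharide, had 1.82, 1.64 and 1.98 FPKM in control, 2.25, 1.30 and 1.96 in dbdb and 1.94, 1.96 and 2.42 in dbR mice. The groups overlapped fully, with a log2 fold change of -0.01 (SE 0.19) whose sign changed under several settings. Cd163, a haemoglobin scavenger receptor of resident macrophages, had at most 0.0907 FPKM in any library.

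**Figure D3:**
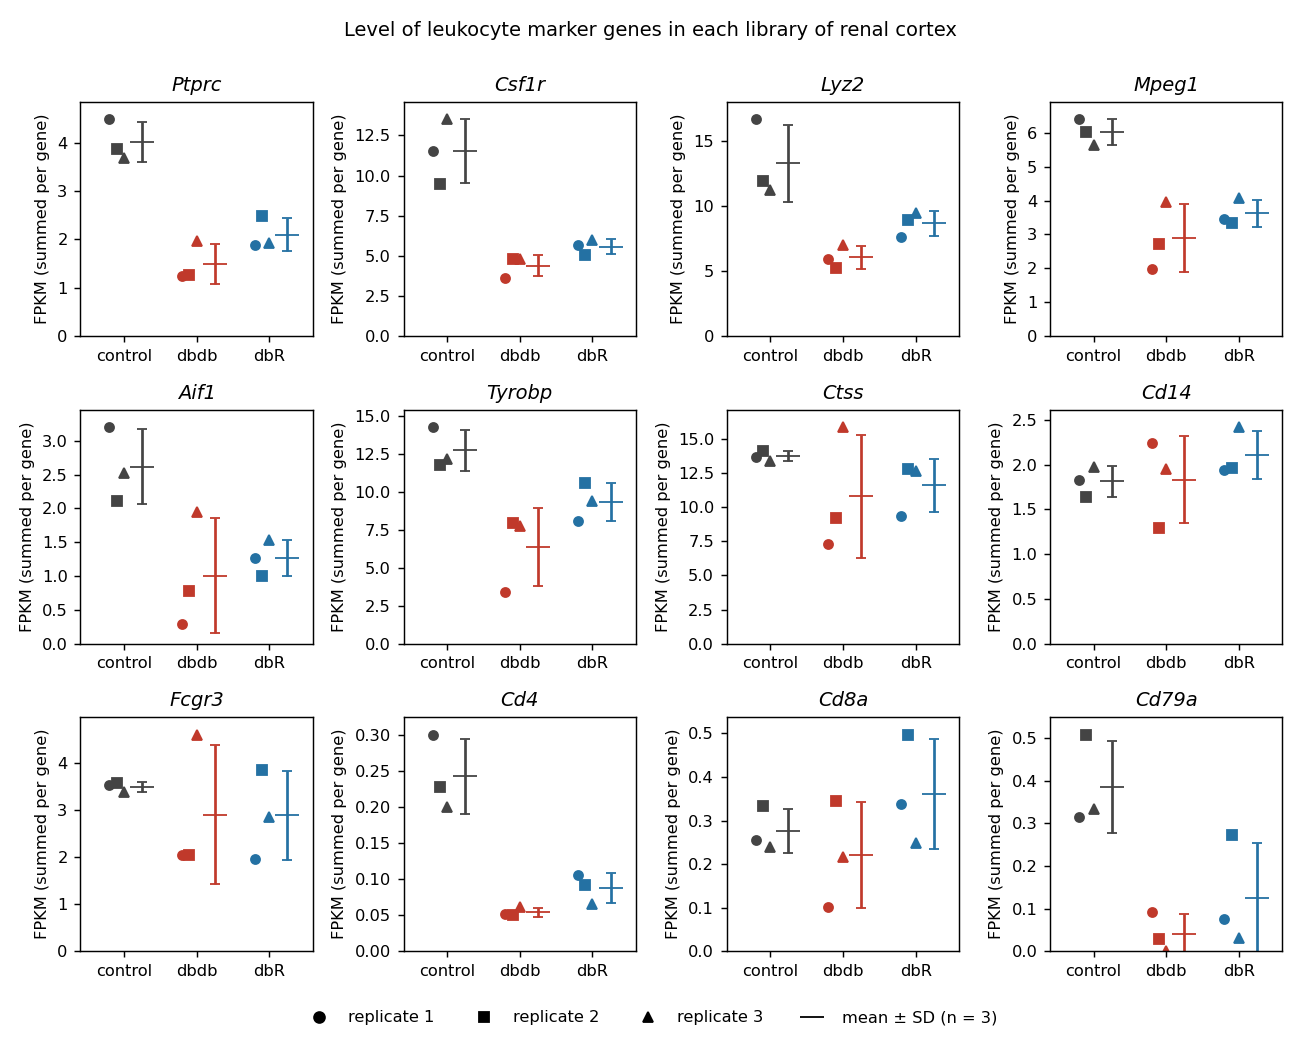
FPKM of 12 of the marker genes (y axis of each panel, from 0) in each library of the control, dbdb and dbR groups (x axis), with mean ± SD (n = 3) beside the points. Ptprc, Csf1r, Lyz2, Mpeg1, Aif1, Tyrobp, Cd4 and Cd79a have every dbdb library below every control library, while Ctss and Fcgr3 have dbdb replicate 3 (triangle) above all control libraries.

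Of the 4 Fc receptor and adaptor genes, Tyrobp and Fcgr1 were downregulated in dbdb mice, compared with 13.4% of all genes. Tyrobp, the adaptor of activating receptors on myeloid and natural killer cells (chr7:30413760-30417585), had 14.3, 11.7 and 12.1 FPKM in control, 3.38, 7.94 and 7.73 in dbdb and 8.06, 10.6 and 9.35 in dbR mice. The 3 groups did not overlap, with the dbR libraries between the others, and Tyrobp was lower in dbdb than in control mice by a log2 fold change of -1.08 (SE 0.27, adjusted p = 0.0164 from limma). Without control replicate 1 its adjusted p was 0.0518. Fcgr1, the high-affinity receptor for IgG (chr3:96282909-96293969), had 0.530, 0.666 and 0.546 FPKM in control, 0.157, 0.245 and 0.464 in dbdb and 0.363, 0.253 and 0.387 in dbR mice. Its log2 fold change of -0.88 passed narrowly (adjusted p = 0.0452 from limma) and passed in 1 of the 9 fits that left out a library, the fit without dbdb replicate 3 (adjusted p = 0.00961), while it reached at most 0.132 in the others.

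Fcer1g, the γ chain through which Fc receptors signal, had 6.86, 8.61 and 6.79 FPKM in control, 3.80, 3.95 and 6.80 in dbdb and 4.73, 7.47 and 7.11 in dbR mice. Of the dbdb libraries, replicate 3 reached the control range, as did dbR replicates 2 and 3, and the log2 fold change was -0.65 (adjusted p = 0.0663 from limma). Fcgr3, a low-affinity receptor for IgG, had 3.54, 3.59 and 3.39 FPKM in control, 2.05, 2.06 and 4.62 in dbdb and 1.97, 3.86 and 2.86 in dbR mice. It was highest in dbdb replicate 3, and its log2 fold change of -0.37 did not pass (adjusted p = 0.413 from limma). Fcgr3 lies in a cluster with the related receptors Fcgr2b and Fcgr4, so its share of the fragments is uncertain.

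T cell genes were read at low levels, and 1 of the 7 tested, Cd4, was downregulated in dbdb mice, a share near the 13.4% of all genes. Cd4, the coreceptor of helper T cells that dendritic cells can also carry (chr6:124864692-124888221), had 0.301, 0.228 and 0.20 FPKM in control, 0.0513, 0.050 and 0.0612 in dbdb and 0.106, 0.0919 and 0.0659 in dbR mice. These values correspond to an estimated 25.0, 18.0 and 17.0 fragments, 3.98, 3.99 and 4.98 fragments, and 10, 7.98 and 4.99 fragments. The 3 groups did not overlap, with the dbR libraries just above the dbdb libraries, and dbdb mice were lower than control mice by a log2 fold change of -1.14 (SE 0.24, adjusted p = 0.00728 from limma). It kept its call in all 9 fits that left out a library.

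Cd2, an adhesion receptor of T and natural killer cells (chr3:101275899-101287939), had 0.611, 0.358 and 0.296 FPKM in control, 0.244, 0.119 and 0.116 in dbdb and 0, 0.145 and 0.0834 in dbR mice. All 6 db/db libraries were below the control libraries, while the log2 fold change of -1.0 in dbdb vs. control did not pass (adjusted p = 0.0784 from limma). Cd3g, a CD3 chain, had 1.06, 0.511 and 0.129 FPKM in control, 0.0474, 0.185 and 0.226 in dbdb and 0.156, 0.169 and 0.244 in dbR mice, so that control replicate 1 was far above the others and control replicate 3 lay inside the dbdb range. Cd8a, the coreceptor of cytotoxic T cells, had 0.254, 0.333 and 0.240 FPKM in control, 0.102, 0.344 and 0.216 in dbdb and 0.337, 0.498 and 0.25 in dbR mice, with full overlap (log2 fold change -0.29, adjusted p = 0.530 from limma). Lck, the kinase of CD4 and CD8, had 0.481, 0.425 and 0.198 FPKM in control, 0.241, 0.333 and 0.132 in dbdb and 0.149, 0.252 and 0.283 in dbR mice, which also overlapped.

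The remaining T cell genes were lower in mean as well, without passing. Cd3e, a CD3 chain, had 0.263 ± 0.126 FPKM in control and 0.121 ± 0.0798 in dbdb mice, and Il7r, the interleukin-7 receptor of naive and memory T cells, had 0.192 ± 0.0488 and 0.0728 ± 0.0327 (SD, n = 3 each; adjusted p = 0.239 and 0.0678 from limma). The Il7r groups did not overlap. Cd3d, whose mean was too low for a test, was listed at 0 in dbdb replicates 1 and 2 and in dbR replicate 1 and had 0.130 FPKM in dbdb replicate 3, inside the range of 0.125 to 0.353 FPKM of the control libraries. Cd3e, Cd3d and Cd3g are neighbours on chromosome 9. Without control replicate 1, which was the highest control library for 6 of the 7 T cell genes, the log2 fold change of Cd3g moved from -1.19 to -0.65 and that of Cd4 from -1.14 to -1.03 (adjusted p = 0.0303 from limma).

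Among the B cell genes, Cd79a was downregulated in dbdb mice. Cd79a, a signalling chain of the B cell receptor (chr7:24897381-24902197), had 0.314, 0.508 and 0.333 FPKM in control, 0.0912, 0.0296 and 0 in dbdb and 0.0751, 0.272 and 0.0312 in dbR mice, or an estimated 11, 16.9 and 11.9 fragments against 2.99, 0.998 and 0 in dbdb mice. The control libraries lay above all others, and its decrease (log2 fold change -1.82, SE 0.41, adjusted p = 0.00956 from limma) was the largest of the 28 genes with all 9 libraries, while without dbdb replicate 3 those of Aif1, Ms4a7 and Nkg7 were larger. Cd79b, the partner chain, had 0.548, 0.343 and 0.369 FPKM in control, 0.194, 0.189 and 0.334 in dbdb and 0.351, 0.416 and 0.159 in dbR mice. Its dbdb libraries were also below the control libraries, but the log2 fold change of -0.62 did not pass (adjusted p = 0.161 from limma). Ms4a1, which encodes CD20, was not tested and had 0.158, 0.0257 and 0.131 FPKM in control and 0.0130, 0 and 0.0248 in dbdb mice, at most 1.99 estimated fragments in a dbdb library. Nkg7, a granule protein of natural killer and cytotoxic T cells, had 0.876, 0.623 and 0.422 FPKM in control, 0.116, 0.113 and 0.607 in dbdb and 0.0477, 0.363 and 0.0864 in dbR mice. Dbdb replicate 3 lay inside the control range, and the log2 fold change of -1.17 did not pass (adjusted p = 0.141 from limma).

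Without dbdb replicate 3, 20 of the 28 marker genes were downregulated in dbdb mice, compared with 11.0% of all genes, and 0 were upregulated. These were the 14 called with all 9 libraries and 6 more, Cd53, Ctss, Fcer1g, Fcgr3, Mrc1 and Nkg7. The largest moves were those of Aif1 from -1.60 to -2.20 and Nkg7 from -1.17 to -1.74 on the log2 scale, while Csf1r moved from -1.37 to -1.43. The log2 fold change of Fcgr3 went from -0.37 to -0.74 (adjusted p = 0.0418 from limma), and that of Ctss from -0.42 to -0.74 (adjusted p = 0.00750 from limma). Cd14 still stood near 0, at -0.08. The log2 fold change moved further below 0 for 17 of the 18 genes of leukocytes in general, phagocytes and Fc receptors, the exception being Cd68 (from -0.92 to -0.82), and for 5 of the 9 T and B cell genes. Cd3g went from -1.19 to -1.41 and Cd79b from -0.62 to -0.81, whereas Lck went from -0.47 to -0.23 and Cd79a from -1.82 to -1.60. Without control replicate 1, where Il7r fell below the minimum level, 9 of 27 marker genes were downregulated, against 10.3% of all genes, and Aif1, Fcgr1, Ms4a7, Msr1 and Tyrobp no longer passed. Without control replicate 3, 13 were downregulated, against 9.66% of all genes, with Cd3g called in addition and Aif1 and Fcgr1 no longer passing. Ptprc, Adgre1, Cd68, Csf1r, Lyz2 and Mpeg1 were called under all 20 alternatives tried.

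**Figure D4:**
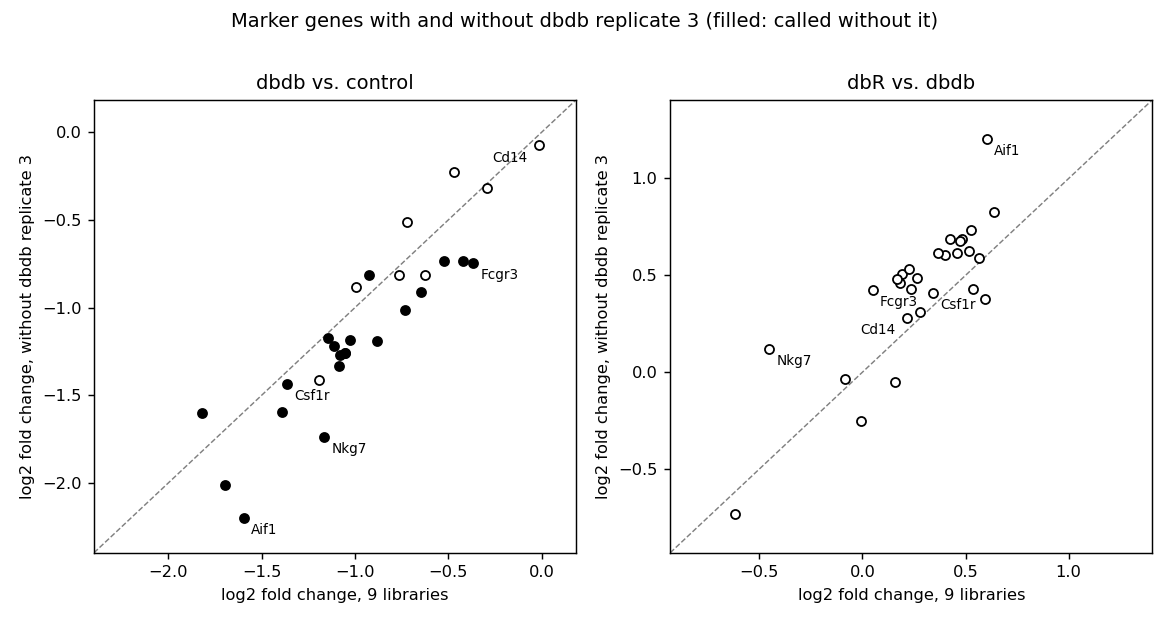
Log2 fold change of each tested marker gene with all 9 libraries (x axis) and without dbdb replicate 3 (y axis) in dbdb vs. control (left) and dbR vs. dbdb (right), on the log2(FPKM + 0.1) scale, with filled points at an adjusted p under 0.05 without that library and the dashed line at equal values. In dbdb vs. control 20 points are filled and Aif1 moves from -1.60 to -2.20, and in dbR vs. dbdb 0 are filled and Aif1 moves from 0.60 to 1.21.

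The comparison of dbR with dbdb mice asked whether rosiglitazone changed these markers in db/db mice. It shares the dbdb libraries with the comparison above, so a high or low dbdb value enters both with opposite signs. None of the 28 marker genes was called (0 of 28 by limma at an adjusted p under 0.05, against 0.743% of all genes in either direction and 0.564% higher in dbR mice), and 0 were called under any of the 20 alternatives. An unadjusted p under 0.05 was found for 7, all higher in dbR mice (Ptprc, Adgre1, Cd68, Csf1r, Mrc1, Lyz2 and Tyrobp), compared with 9.43% of all genes that were higher at this level. The log2 fold change was above 0 for 24 of the 28, against 49.5% of all genes, with a median of 0.31. All 3 dbR libraries lay above the dbdb libraries for 5 genes (Cd68, Csf1r, Lyz2, Tyrobp and Cd4), compared with 10.7% of all genes.

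Phagocyte genes were above 0 in 11 of 11 cases and Fc receptor genes in 4 of 4, while T cell genes were above 0 in 4 of 7. Without dbdb replicate 1, 8 of 29 marker genes lay below 0, among them Ctss, Fcgr1 and Fcgr3 (log2 fold changes -0.076, -0.036 and -0.14). Ms4a7 lay below 0 without dbdb replicate 2, dbR replicate 2 or dbR replicate 3. Lyz2 had the smallest p, with a log2 fold change of 0.52 (SE 0.16, unadjusted p = 0.00820, adjusted p = 0.141 from limma). Tyrobp had a log2 fold change of 0.64 (SE 0.27, adjusted p = 0.264 from limma), the largest with all 9 libraries but below that of Aif1 (1.21) without dbdb replicate 3, and Csf1r had 0.34 (SE 0.14, adjusted p = 0.258 from limma). For Cd2, the log2 fold change was -0.62 (adjusted p = 0.438 from limma), the lowest of the 28 with all 9 libraries. Without dbdb replicate 3 the median was 0.48 and 12 genes had an unadjusted p under 0.05, against 16.0% of all genes in either direction, but 0 passed the adjustment, against 0.971% of all genes. Without dbdb replicate 1 the median was 0.13 and 1 gene had an unadjusted p under 0.05 (16.3% of all genes), and it was also 1 without mitochondrial genes (18.8%) and with transcripts in place of genes (10.5% of all transcripts). Without dbdb replicate 3, the lowest adjusted p was that of Ptprc, with a log2 fold change of 0.69 (adjusted p = 0.0713 from limma). The sum over the phagocyte genes was 1.24 times the dbdb mean in dbR mice with all libraries and 1.46 times without dbdb replicate 3.

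The comparison of dbR with control mice gave the level that remained under treatment. Of the 28 genes, 7 were downregulated in dbR mice and 0 upregulated, against 11.8% of all genes that were downregulated and 24.1% called in either direction. The log2 fold change was below 0 for 25 genes (50.3% of all genes), the dbR libraries lay below the control libraries without overlap for 17 (21.1% of all genes), and 14 had an unadjusted p under 0.05 (36.8% of all genes). Those called were Ptprc, Csf1r, Lyz2, Mpeg1, Ms4a7, Cd4 and Cd2. Csf1r had a log2 fold change of -1.02 (adjusted p = 0.000946 from limma) and was called under all 20 alternatives. Ptprc had -0.91 (adjusted p = 0.00571 from limma), Lyz2 had -0.59 (adjusted p = 0.0220 from limma) and Cd2 had -1.61 (adjusted p = 0.0126 from limma). Mrc1 stood at 0.0026 (SE 0.22), and Cd14 and Cd8a at 0.20 and 0.27. Without control replicate 1, Ptprc, Csf1r and Cd2 were called and the other 4 were not (9.16% of all genes downregulated). Without dbR replicate 1, 4 genes were called, Ptprc, Csf1r, Cd4 and Cd2 (8.35% of all genes). The dbdb vs. control and dbR vs. control values share the control libraries, and whether the drop differed between treated and untreated mice is what dbR vs. dbdb tests.

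Genes of the same cell types outside the marker list were also examined. Of 31 other mononuclear phagocyte genes tested, 12 were downregulated and 4 upregulated in dbdb vs. control, where 13.4% of all genes were lower and 13.1% higher, with a median log2 fold change of -0.55. Ccr2, the chemokine receptor that brings monocytes from the blood, had 3.44, 2.44 and 2.36 FPKM in control, 0.520, 0.664 and 1.41 in dbdb and 0.949, 1.30 and 1.65 in dbR mice (log2 fold change in dbdb vs. control -1.65, adjusted p = 0.00446 from limma). Lilrb4a, an inhibitory receptor, had a log2 fold change of -1.18 and Itgax, the CD11c integrin of dendritic cells and macrophages, one of -1.15 (adjusted p = 0.00433 and 0.00372 from limma). Spi1, the gene of PU.1, fell by 1.03 on the log2 scale (adjusted p = 0.0287 from limma), with 0.968, 2.02 and 1.24 FPKM in control and 0.484, 0.756 and 0.604 in dbdb mice. Among the others that fell were Cx3cr1, Itgam, Cybb, Ncf4, Fcgr2b, Cd84 and Cd300a. The complement genes C1qa, C1qb and C1qc, which resident macrophages express strongly, had log2 fold changes of -0.55, -0.60 and -0.59 and did not pass (adjusted p = 0.0829, 0.0653 and 0.123 from limma). Cd9, Lgals3 and Maf were among those that rose, and these genes are also expressed by tubule cells. In dbR vs. dbdb, 0 of the 31 were called, and Lilrb4a came closest with a log2 fold change of 1.06 (adjusted p = 0.0595 from limma).

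Of the growth factors of macrophages, Il34 fell and Csf1 did not pass. Il34, a Csf1r ligand made by tubule cells in the kidney, had 6.82, 4.87 and 7.71 FPKM in control, 1.41, 1.27 and 2.63 in dbdb and 1.56, 1.54 and 0.878 in dbR mice. All 6 db/db libraries were below the control libraries, with log2 fold changes of -1.86 in dbdb vs. control (adjusted p = 0.00162 from limma) and -2.22 in dbR vs. control (adjusted p = 0.000667 from limma). Csf1 had 3.22, 3.27 and 3.65 FPKM in control, 1.84, 2.62 and 3.37 in dbdb and 3.69, 3.03 and 2.47 in dbR mice, and the groups overlapped. Among 7 tested genes of macrophage activation, Nos2, Tnf, Clec10a and Tgfb1 fell in dbdb vs. control and 0 rose, where 13.4% of all genes were lower and 13.1% higher. Tnf had 0.256, 0.239 and 0.304 FPKM in control, 0, 0.0772 and 0.0865 in dbdb and 0.152, 0.213 and 0.190 in dbR mice, few fragments in each library.

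Of 10 tested genes of leukocyte adhesion, 4 fell in dbdb mice, all of them carried by leukocytes. Among these were Itgb2, the β chain of the leukocyte integrins (log2 fold change -1.44, adjusted p = 0.00447 from limma), Selplg and Itga4, whereas the endothelial ligands Vcam1, Icam1 and Icam2 had log2 fold changes of 0.01, 0.20 and -0.35 and did not pass, with every dbdb library below the control libraries for Icam2. In the other T and natural killer cell genes, 2 of 13 fell, Cd8b1 (log2 fold change -1.79, adjusted p = 0.00903 from limma) and Thy1, and in the other B and plasma cell genes 1 of 9, Jchain, the joining chain of secreted antibodies (log2 fold change -1.96, adjusted p = 0.00569 from limma). Of 8 dendritic cell genes, 1 fell, Cd209a (log2 fold change -2.24, adjusted p = 0.000745 from limma). The counts for T, B and dendritic cell genes are near the 13.4% of all genes that were lower. In dbR vs. dbdb, 0 genes of these lists were called.

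**Figure D5:**
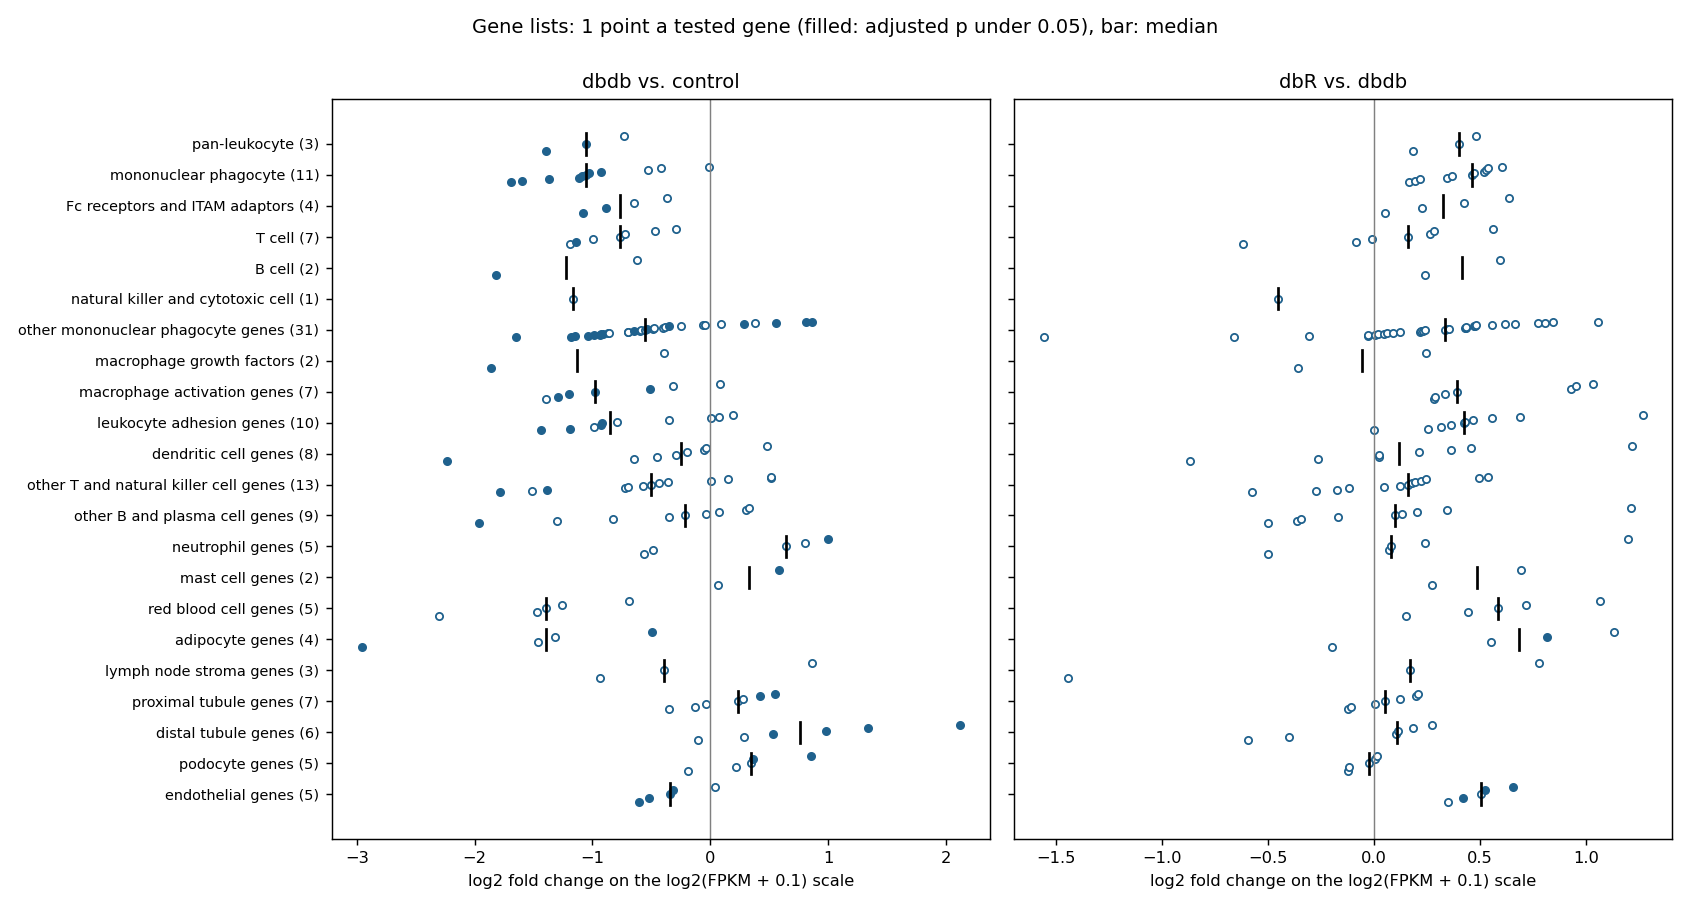
Log2 fold change on the log2(FPKM + 0.1) scale (x axis) of every tested gene of each list (y axis, number of tested genes in brackets) for dbdb against control mice and for dbR against dbdb mice, with filled points at an adjusted p under 0.05 and a bar at the median of each list. The 31 other mononuclear phagocyte genes have a median of -0.55 in dbdb vs. control, and the 5 endothelial genes have medians of -0.34 and 0.51.

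Markers of other cells moved with the groups as well, and their counts stand against 13.4% of all genes lower and 13.1% higher in dbdb vs. control and 0.564% higher in dbR vs. dbdb. Of 5 endothelial genes, 4 fell in dbdb vs. control (Pecam1, Cdh5, Kdr and Emcn) and 3 rose in dbR vs. dbdb (Kdr, Emcn and Tek), and their sum was 101 to 110 FPKM in control, 74.3 to 81.3 in dbdb and 105 to 125 in dbR mice. The ratio of the dbdb to the control sum was 0.751 for the endothelial genes and 0.543 for all leukocyte markers. Of 6 distal tubule genes, 4 rose in dbdb vs. control, with sums of 563 to 672 FPKM in control and 836 to 1141 in dbdb mice, while 2 of 7 proximal tubule genes and 2 of 5 podocyte genes rose. The adipocyte gene Adipoq was listed at 0 in the 3 dbdb libraries and had 0.121 to 0.265 FPKM in control mice, and Cfd fell in dbdb vs. control (log2 fold change -2.96, adjusted p = 0.0138 from limma). Fabp4, which endothelial cells also express, fell in dbdb vs. control and rose in dbR vs. dbdb (log2 fold changes -0.50 and 0.82). None of the 5 tested red blood cell genes and 3 lymph node stroma genes was called in any comparison (0 by limma, with 1 red blood cell gene and 0 lymph node genes at an unadjusted p under 0.05 in dbdb vs. control), although all 5 red blood cell genes lay below 0 in dbdb vs. control with a median log2 fold change of -1.40 and a mean sum of 10.5 FPKM in dbdb mice, against 45.2 FPKM in control mice with and 15.7 FPKM without control replicate 1. Of 5 tested neutrophil genes, 3 lay above 0 and 2 below 0 in dbdb vs. control, and 1 was called, S100a8. S100a8 rose (log2 fold change 1.0, adjusted p = 0.0259 from limma), with an estimated 7.10, 5.76 and 5.82 fragments in control and 16.9, 7.97 and 14.8 in dbdb libraries. Ly6g, Mpo and Elane were listed at 0 in all 3 control libraries, and Elane also in all 3 dbdb libraries. Of the mast cell genes, Kit rose, a gene that is not limited to mast cells, and Tpsb2 was listed at 0 in all 9 libraries. The part of these shifts in the values of the leukocyte markers was not tested.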

How the data were processed

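Total RNA of renal cortex was depleted of ribosomal RNA and made into strand-specific libraries. Per the labels, the authors aligned reads to GRCm38.p2 with TopHat2 2.0.9 and estimated transcripts with Cufflinks 2.1.1, and they deposited FPKM values per transcript, normalised by transcript length and mapped fragments. Where a gene has several transcripts, these values rest on the division of fragments by Cufflinks. The FPKM values of 50660 mRNA transcripts were added up by gene identifier. lncRNA values were not used here. Read counts were not used, and the steps of low FPKM of genes with 1 transcript gave the estimated fragments. The fragment length and the totals were chosen to bring the largest share of these low values within 0.05 of a whole number. The share reached (between 86.2% and 88.8%) is therefore no separate check. Intervals were not computed from the estimated fragments.

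log2(FPKM + 0.1) was fitted with limma 3.58.1 (R 4.3.3) in 1 model of 3 groups with a variance trend, for the 14537 genes with a mean of at least 0.1 FPKM, with two-sided p-values adjusted by Benjamini-Hochberg over all of them. With 3 libraries per group, an exact permutation test was not used because it cannot pass 0.05. On simulated data for these 14537 genes, the fit recovered 75.5% of 200 genes changed by 1 on the log2 scale for dbdb vs. control and 82.5% for dbR vs. dbdb. The changed genes were drawn at random from all of them. Changes as small as those of the marker genes in dbR vs. dbdb (median 0.31, range -0.62 to 0.64) were not simulated. Libraries of different mice are the replicates.

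The members and lists were chosen with earlier results of these data known. All 33 members are named; every library value is given for members called in any comparison and for up to 3 members of highest mean FPKM per cell type, and Cd14 was added after its values were seen. Of the other lists, called genes are named, or up to 4 with the largest change, except for a few genes that are counted but not reported here by name; C1qa, C1qb, C1qc, Vcam1, Icam1 and Icam2 and the neutrophil and mast cell genes at 0 were named after their values were seen. Of 2 gene identifiers with the same symbol, the one with the higher mean was used. Gene coordinates are from GENCODE M21 (GRCm38), promoters from RefSeq (GRCm38.p6). A planned search of member proteins for the ITAM signalling motif was not analysed here. The alternatives tried were pseudocounts (1 and 0.01), all genes without a filter, a mean of at least 1 FPKM, 75th percentile and quantile scaling, mitochondrial genes left out, only the 6 libraries of a comparison, no variance trend, transcripts in place of genes, the replicate block and each library left out. Calculations outside R used python 3.11.15, numpy 2.4.6, pandas 2.3.3, scipy 1.17.1 and matplotlib 3.10.9.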

Additional observations from a re-analysis of the deposited data

How the results depend on the processing

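The count of marker genes downregulated in dbdb vs. control was 14 with the fit as reported, 6 with transcripts in place of genes, and 9 to 20 when each library was left out in turn, with 9 without control replicate 1. With transcripts in place of genes, each marker gene was read only from its transcript of highest mean FPKM. The p-values were then adjusted over 29362 transcripts, of which 1488 were downregulated in dbdb vs. control. In dbR vs. control the count was 7 of 28, and 11 with quantile scaling. At a mean of at least 1 FPKM it was 4 of the 15 marker genes tested there, with 1661 of all 11615 genes downregulated. It was 12 of 29 with only the 6 libraries of the comparison. With transcripts in place of genes it was 1, with 1324 of all 29362 transcripts downregulated. With a library left out it was 3 to 10 (3 without control replicate 1, 4 without control replicate 2 or dbR replicate 1). In dbR vs. dbdb it was 0 throughout, while the count over all genes was 108, and 31 without a filter, 166 at a mean of at least 1 FPKM, 203 and 234 with 75th percentile and quantile scaling, 36 with only the 6 libraries, 18 without the variance trend, 5 with transcripts in place of genes and 2 to 141 with a library left out (2 and 10 without dbR replicates 2 and 3, 31 and 36 without dbdb replicates 2 and 1, 70 without dbR replicate 1). Leaving out mitochondrial genes moved the median of all genes by 0.15 in dbdb vs. control and the split to 3492 higher and 969 lower, from 1899 and 1941, with 13 marker genes downregulated and 27 of 28 below 0. The split moved to 2112 and 1751 there with 75th percentile scaling, and in dbR vs. control from 1786 and 1711 to 2210 and 1336 with it and to 2404 and 1006 without mitochondrial genes. Same-numbered libraries of different groups did not deviate together (correlations of -0.175 to 0.0615, and the best match in another group had the same number in 3 of 18 cases), so the numbers name no pairs. With the replicate number as a block, 13, 0 and 7 marker genes were called in dbdb vs. control, dbR vs. dbdb and dbR vs. control, and 23 genes overall in dbR vs. dbdb.

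The direction of some values changed. In dbdb vs. control, the log2 fold change of Cd14 was 0.011 with 75th percentile scaling, 0.14 without mitochondrial genes and -0.17 to 0.20 with a library left out, that of Cd8a -0.57 to 0.0021 with a library left out, and that of Cd79b 0.11 with transcripts in place of genes. In dbR vs. dbdb with a library left out, Cd53 lay between -0.049 and 0.46, Ms4a7 between -0.070 and 0.69, Ctss between -0.076 and 0.48, Fcgr1 between -0.036 and 0.53, Fcgr3 between -0.18 and 0.43, Cd3e between -0.25 and 0.48, Cd3g between -0.085 and 0.49, Lck between -0.25 and 0.20, Il7r between -0.25 and 0.026 and Nkg7 between -0.95 and 0.12. With transcripts in place of genes Ms4a7 was -0.079, Fcgr3 -0.048 and Lck 0.24, without mitochondrial genes Fcgr3 was -0.012, and Lck was 0.0018 at a pseudocount of 0.01 and 0.0078 with 75th percentile scaling. In dbR vs. control, Mrc1 was -0.0026 at a pseudocount of 1, -0.14 with quantile scaling and -0.18 to 0.11 with a library left out, and with transcripts in place of genes Cd8a was -0.012 and Cd79b 0.89. The cause of these changes was not tested. For the T and B cell marker genes with 1 transcript, under 30 estimated fragments per library limit what can be seen.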
